A study of Mus musculus with 21 samples.

Results

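The guanylate-binding proteins described here are 9 genes in 2 clusters of the mouse genome: Gbp2, Gbp2b, Gbp3, Gbp5 and Gbp7 on chromosome 3, and Gbp4, Gbp6, Gbp8 and Gbp9 on chromosome 5. They were chosen by symbol from the 45706 genes of the table, with the identifiers matched to GENCODE mouse M21, and all 9 were among the 23815 genes tested. Gbp2b was singled out because it differed between genotypes in these libraries, so its levels are given as a description, and no test was applied to it. The same holds for every member in microglia 1 day after injury compared between genotypes.

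RNA-seq was performed on cells sorted from the brains of adult male mice after controlled cortical impact (CCI), a model of traumatic brain injury in which a piston strikes the exposed cortex. The mice were wildtype (WT, C57BL/6) or Fgg390-396A, a knock-in on the same background whose fibrinogen clots but lacks the site bound by the integrin CD11b/CD18 of microglia and myeloid cells. The 7 groups of 3 libraries were microglia (CD45lowCD11b+, Mg) from sham-operated wildtype mice, from WT mice at 1 and 7 days after injury and from Fgg390-396A mice at 1 and 7 days, and infiltrating myeloid cells (CD45hiCD11b+, Mp, labelled as macrophages) from WT and from Fgg390-396A mice at 1 day. Each library held 40000 microglia or 25000 myeloid cells from 2 pooled brains, no Fgg390-396A sham was among the libraries, and myeloid cells were taken at 1 day alone.

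Guanylate-binding proteins are large GTPases that cells make in quantity when interferon, above all interferon-gamma, signals, in part through the transcription factor IRF1. They assemble on the vacuoles and surfaces of intracellular microbes and help to set off inflammasomes, and microglia and monocyte-derived cells are among the cells that induce them. Gbp2b, earlier named Gbp1, is the mouse member known for a response to interferon that differs between inbred strains.

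Library totals ranged from 18896957 to 51875767 counts, of which 43.0% to 58.6% were ribosomal RNA, and 3 counts in a library corresponded to 0.0448 to 0.158 CPM, the usual scaling of counts to library size. Levels are CPM with library sizes adjusted by TMM. Because the deposited counts had transcript length divided out within each library, levels of different genes are compared per length. Markers of the sorted cells followed the gates: the summed level of 11 microglial markers was 3311 to 13899 CPM in the microglial libraries and 391 to 1102 CPM in the myeloid ones, and that of 12 markers of blood monocytes and macrophages was 7.94 to 76.9 CPM and 911 to 1553 CPM. Fgg itself, the targeted gene, had 0 counts in all 12 wildtype libraries. It had 2 to 14 counts in each Fgg390-396A microglial library and 0 to 1 in the Fgg390-396A myeloid libraries, at most 0.502 CPM. So few counts were not taken as a check of the labels.

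Several members stood above the rest of their group in 3 Fgg390-396A libraries. These were microglia at 1 day replicate 3, microglia at 7 days replicate 1, and myeloid cells replicate 3. Cxcl9, an interferon-gamma-induced chemokine, was 9.52, 39.5 and 22.6 CPM in them, the highest of each group. It was also 17.8 CPM in Fgg390-396A myeloid cells replicate 1, and 51.9 CPM in WT microglia at 7 days replicate 2. Wildtype libraries stood out as well, such as sham replicate 3 for Gbp5 and Gbp7, and WT microglia at 1 day replicate 1 for Gbp7 and Gbp9. Several log2 fold changes between genotypes that turn on the 3 Fgg390-396A libraries are given below with and without them. Others moved as well, such as Gbp6 in myeloid cells, from 1.57 to 0.20 without replicate 3. Without WT microglia replicate 1, the members' median log2 fold change between genotypes at 1 day was 1.48 in place of 1.01.

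The annotation (GRCm38, GENCODE M21) places the 5 chromosome 3 genes on the plus strand, in the order Gbp5 (chr3:142493978-142522344), Gbp7 (chr3:142530342-142550149), Gbp3 (chr3:142560026-142573209), Gbp2b (chr3:142594847-142619179) and Gbp2 (chr3:142620602-142638008). Fgg lies on the same chromosome, and Gbp2b starts 59.6 Mb from it. The 4 chromosome 5 genes lie on the minus strand, and the models of Gbp8 (chr5:105014150-105139540), Gbp9 (chr5:105077630-105139539) and Gbp4 (chr5:105115767-105139586) overlap. Gbp6 (chr5:105270702-105293698) overlaps the gene model Gm43302, and 64.5% of its transcript stretches of 100 bases, the read length, also occur in other genes, so its counts are uncertain. For Gbp2 and Gbp2b no such stretch was shared with another gene, and for the other members the share was 0.142% (Gbp5) to 10.0% (Gbp7).

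RefSeq promoter sequences (GRCm38.p6) were matched for the 5 chromosome 3 members. The letters GAAA, any 2 bases and GAAA again, the core of the element bound by interferon-activated factors, were searched on both strands in the 250 bases before each start site, and were found in at least 1 window of all 5 members. Of 32851 such windows over all genes, 2.98% held the letters. A second motif, TTCNNNGAA, a palindrome frequent in promoters of cytokine-responsive genes, was found in the windows of Gbp5 and Gbp7, and in 7.02% of all windows; its matches and those of the first motif did not overlap in the windows shown. The windows of Gbp2b, the member that differed most in level between genotypes, and of Gbp7, the most abundant member, are printed 5′ to 3′ on the plus strand with the motif matches in capitals. The first match of the GAAA pair began 137 bases before the start in Gbp2b (chr3:142594597-142594846) and 53 bases before it in Gbp7 (chr3:142530086-142530335). The sequences are those of the reference genome and were not read from these mice.
Gbp2b: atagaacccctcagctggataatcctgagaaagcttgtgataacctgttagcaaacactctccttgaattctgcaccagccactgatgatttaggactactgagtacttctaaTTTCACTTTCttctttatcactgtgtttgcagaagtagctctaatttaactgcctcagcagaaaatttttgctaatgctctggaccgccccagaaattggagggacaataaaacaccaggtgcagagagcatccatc
Gbp7: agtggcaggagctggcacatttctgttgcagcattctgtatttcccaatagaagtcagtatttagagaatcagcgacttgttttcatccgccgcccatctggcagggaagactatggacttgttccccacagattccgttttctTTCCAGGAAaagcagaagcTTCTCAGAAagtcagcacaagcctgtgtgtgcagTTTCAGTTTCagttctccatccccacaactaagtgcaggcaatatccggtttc
A match describes the letters in the window and not a bound site.

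Over all 21 libraries Gbp7 was the most abundant member, with a mean of 18.3 CPM, followed by Gbp9 at 8.84 CPM, Gbp3 at 5.76 CPM, Gbp2 at 5.57 CPM and Gbp5 at 3.96 CPM. These 5 exceeded 3 counts in every library. Gbp6 averaged 1.88 CPM, Gbp4 0.490 CPM and Gbp8 0.287 CPM, and exceeded 3 counts in 20, 16 and 15 libraries. Of the family's other rows, Gbp10 had 43 counts over all libraries, Gm43302 23, Gbp11 1 and the pseudogene Gbp2-ps 0.

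**Figure D1:**
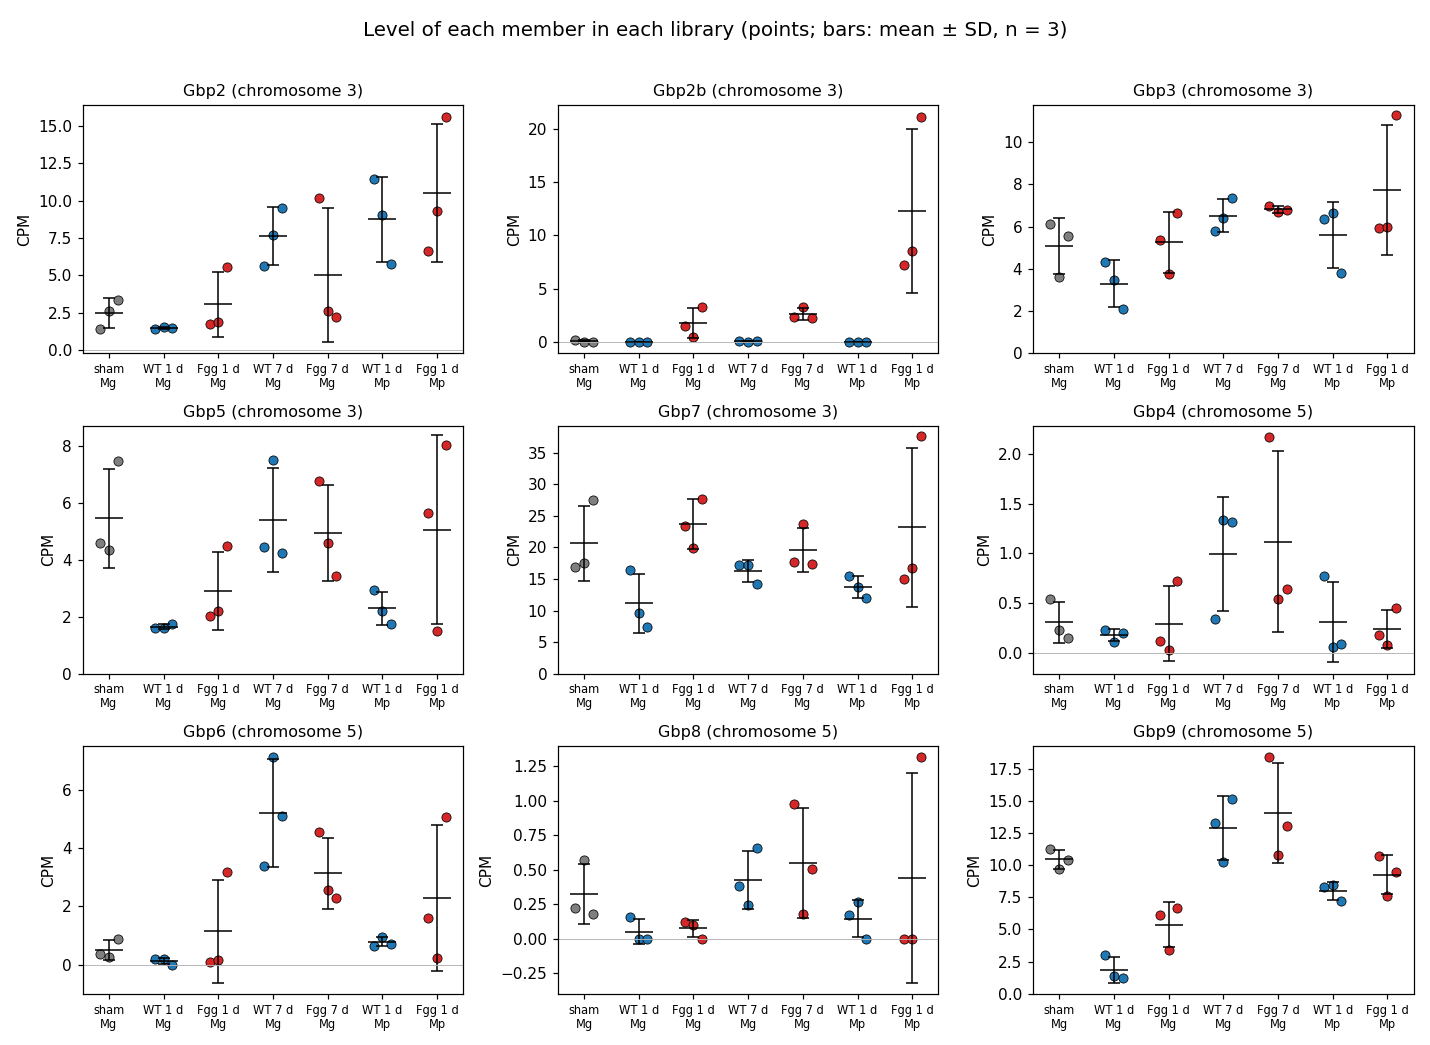
Level of each member in CPM (y axis, linear) in each of the 21 libraries, grouped by genotype, time and cell type (x axis; grey sham, blue WT, red Fgg390-396A). Points are libraries, and bars are the mean and SD of 3. Gbp2b is at or near 0 in every wildtype library, and Gbp9 is lowest in WT microglia at 1 day.

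Gbp2b was present in Fgg390-396A cells and at or near 0 in wildtype cells of both types and at every time. It had 18 to 756 counts in the 9 Fgg390-396A libraries, was at 0 in 9 of the 12 wildtype libraries, and exceeded 3 counts in 1 of those 12, a sham library with 5 counts (0.159 CPM). In Fgg390-396A microglia its level was 1.51, 0.453 and 3.25 CPM at 1 day and 2.36, 3.27 and 2.22 CPM at 7 days. In Fgg390-396A myeloid cells it was 7.23, 8.51 and 21.2 CPM. The lowest Fgg390-396A library, at 0.453 CPM, was above the highest wildtype library, at 0.159 CPM.

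Between genotypes Gbp2b was at least 14.8-fold higher in Fgg390-396A microglia at 1 day and at least 77.9-fold higher in myeloid cells, taking 3 counts in the shallowest wildtype library of the comparison as the floor. In microglia at 7 days the wildtype libraries held 3 counts in all, after rounding deposited values of 0.525, 0 and 1.59. There the ratio of the summed counts per summed depth was 61.5 (95% exact interval 20.8 to 300.3, counting error only). That interval treats the rounded, length-scaled values as counts. The order of the group means was WT microglia and WT myeloid cells at 1 day, both 0 CPM, then WT microglia at 7 days, sham microglia, Fgg390-396A microglia at 1 day, at 7 days, and Fgg390-396A myeloid cells. Neighbours in that order did not overlap between sham and Fgg390-396A microglia at 1 day, or between Fgg390-396A microglia at 7 days and Fgg390-396A myeloid cells.

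Within Fgg390-396A libraries Gbp2b was higher in myeloid cells than in microglia of either time, without overlap. Its mean was 12.3 ± 7.7 CPM (SD, n = 3) in myeloid cells, 1.74 ± 1.41 CPM in microglia at 1 day and 2.61 ± 0.57 CPM at 7 days. It made up 17.9% to 22.6% of the summed level of the chromosome 3 cluster in myeloid cells and 1.61% to 8.0% in microglia. The adjacent gene Gbp2, whose start lies just beyond the end of Gbp2b, was present in all wildtype libraries, at 1.43 to 11.4 CPM.

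Genes beside the cluster on chromosome 3 had far smaller differences than Gbp2b. Within 2 Mb, a window chosen after the values were seen, 7 protein-coding genes that are no members were tested, and their log2 fold changes lay between -0.56 and 0.62 over the 3 genotype comparisons. The medians were -0.10 (microglia at 1 day), -0.08 (microglia at 7 days) and -0.08 (myeloid cells). Ranges stood apart for 1 of the 7 in microglia at 1 day, against 8.72% of all genes. In microglia at 7 days and in myeloid cells 0 of the 7 stood apart, against 11.1% and 8.02% of all genes. Of 1457 chromosome 3 genes tested that are no members, 4, 3 and 13 were called in these comparisons. Over all 23815 genes tested, 13, 9 and 108 were called (0.0546%, 0.0378% and 0.453%). The genes called in microglia were Fcrls and Rps3a1 at both times, which start 4.24 and 3.13 Mb from Fgg, Capza1 (21.8 Mb) and Ap1ar (44.8 Mb) at 1 day, and Fabp5 (-73.0 Mb) at 7 days. The log2 fold change was -2.18 and -1.62 for Fcrls, -2.32 and -1.92 for Rps3a1, -1.05 for Capza1, 1.25 for Ap1ar and -1.86 for Fabp5.

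**Figure D2:**
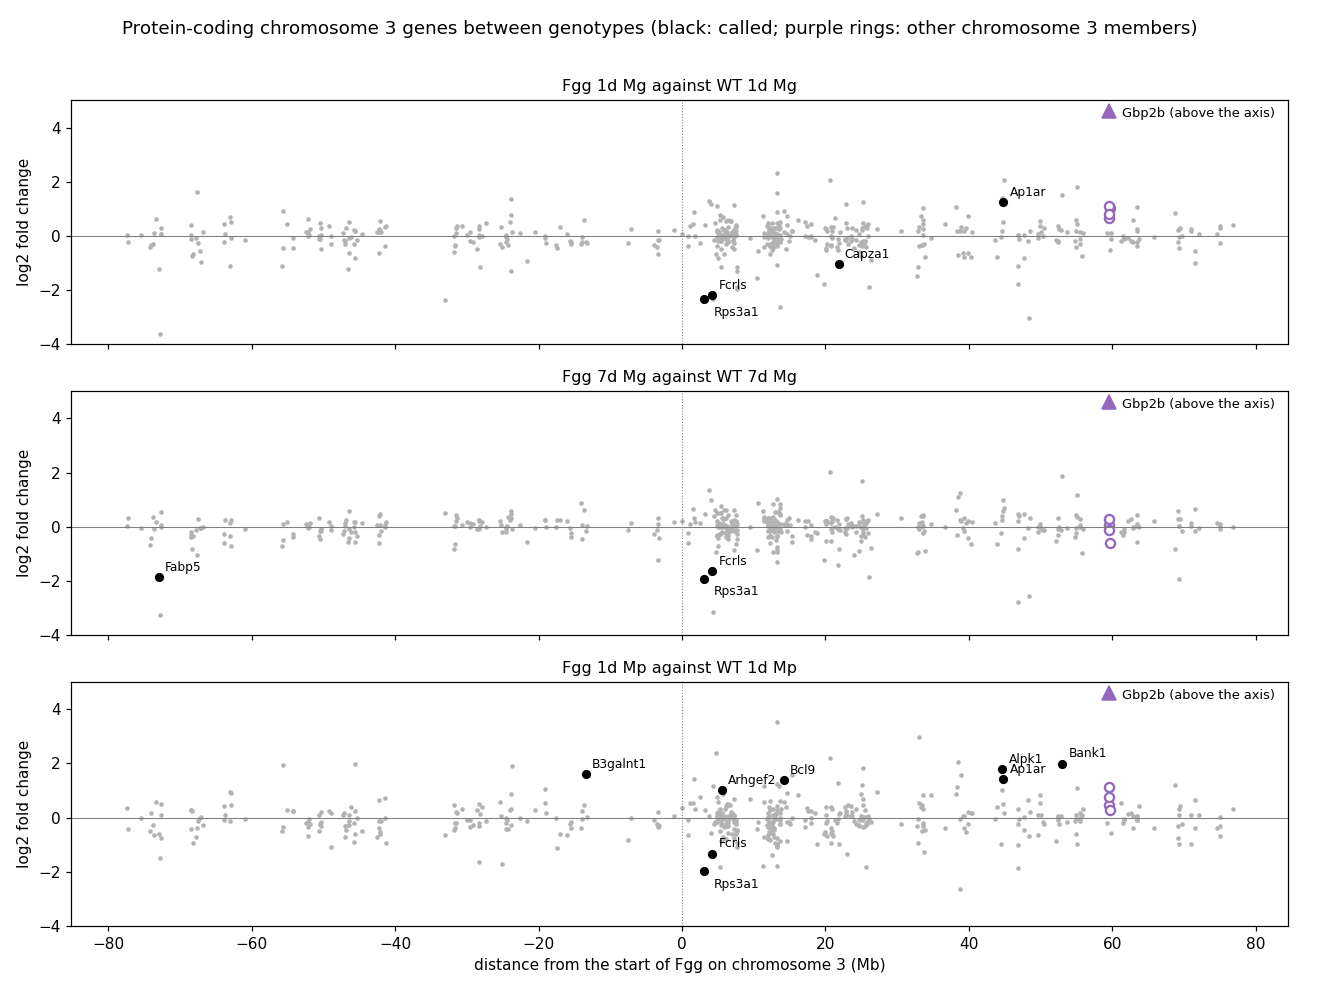
log2 fold change between Fgg390-396A and WT (y axis) of protein-coding chromosome 3 genes with a mean of at least 1 CPM, by distance from the start of Fgg in Mb (x axis), in microglia at 1 and 7 days and in myeloid cells at 1 day. Black points are called genes, purple rings Gbp2, Gbp3, Gbp5 and Gbp7, and the purple triangle Gbp2b, which lies above the axis and whose fitted value is no bound because wildtype counts are at or near 0.

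In WT microglia 1 day after injury Gbp9 and Gbp5, which has been linked to inflammasome assembly, were lower than in sham microglia. They were 2 of the 8 members tested, while 4.21% of all genes were called lower; all 8 log2 fold changes were below 0, with a median of -1.31 against 0 over all genes. Gbp9 was 9.68, 10.4 and 11.2 CPM in sham libraries and 3.02, 1.34 and 1.21 CPM in WT libraries at 1 day. These ranges did not overlap, and the log2 fold change was -2.49 ± 0.34 (SE; edgeR quasi-likelihood test, adjusted p = 2.71e-05). Gbp5 was 4.59, 4.33 and 7.47 CPM in sham and 1.6, 1.59 and 1.76 CPM at 1 day, again without overlap (log2 fold change -1.73 ± 0.49, edgeR adjusted p = 0.0192).

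The call of Gbp9 held in all 15 other settings, and that of Gbp5 was lost without sham replicate 3 or without any 1 of the 3 WT libraries at 1 day, with adjusted p up to 0.0851 (edgeR). Gbp7, which has been linked to assembly of the phagocyte NADPH oxidase, was 16.9 to 27.4 CPM in sham and 7.42 to 16.4 CPM at 1 day, with ranges that did not overlap and a log2 fold change of -0.89 that did not pass the test (edgeR adjusted p = 0.0659). Ranges stood apart, lower, for 5 of the 8 members, against 17% of all genes. The summed microglial markers moved with these genes, at 12381 to 13899 CPM in sham and 3311 to 5358 CPM in WT microglia at 1 day. The 10 endothelial markers summed to 34.4 to 40 CPM and 59.8 to 108.8 CPM, and ribosomal RNA took 43.5% to 47.9% and 50.7% to 58.6% of counts, also without overlap. The part of these in the result was not tested. In sorted bulk RNA, fewer cells with a transcript and less of it per cell cannot be told apart.

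In Fgg390-396A microglia at 1 day none of the 8 members was called against sham by edgeR, where 6.64% of all genes were called and 1 member, Gbp9, had an unadjusted p under 0.05. DESeq2 called 1 member, Gbp9. Gbp9 was 6.09, 3.37 and 6.67 CPM, below all 3 sham libraries, with a log2 fold change of -0.96 (95% interval -1.62 to -0.30, edgeR adjusted p = 0.0632). The median log2 fold change of the 8 was -0.04, and 4 were above and 4 below 0. The microglial markers summed to 6117 to 7869 CPM in these libraries, and their part in the result was not tested. The sham mice were wildtype, so injury and genotype cannot be told apart in this comparison. Both this comparison and the one in WT mice used the same sham libraries, so their values are given side by side and were not compared with each other.

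Between genotypes in microglia at 1 day, a contrast that is only described because it may have entered the choice of the members, all 9 members had a log2 fold change above 0. The microglial markers stood apart in the same direction, at 6117 to 7869 CPM in Fgg390-396A and 3311 to 5358 CPM in WT libraries, and their part was not tested. Gbp9 was 6.09, 3.37 and 6.67 CPM in Fgg390-396A and 3.02, 1.34 and 1.21 CPM in WT microglia, and Gbp7 was 23.4, 19.9 and 27.7 CPM against 16.4, 9.55 and 7.42 CPM. The ranges did not overlap for Gbp9 and Gbp7, with Fgg390-396A higher. Gbp2 was 1.78, 1.89 and 5.58 CPM against 1.45, 1.59 and 1.48 CPM, and Gbp5 2.01, 2.22 and 4.50 CPM against 1.6, 1.59 and 1.76 CPM. Ranges of Gbp2 and Gbp5 also stood apart, by a small gap from 2 of the Fgg390-396A libraries and a wide one from replicate 3.

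The log2 fold change was 1.53 for Gbp9, 1.09 for Gbp7, 1.01 for Gbp2, 0.81 for Gbp5 and 0.67 for Gbp3. The 4 members other than Gbp2b that stood apart compare with 5.73% of all genes whose ranges were higher, and 0.0546% of all genes were called. Gbp6 was 0.0895, 0.151 and 3.17 CPM in Fgg390-396A and 0.191, 0.181 and 0 CPM in WT libraries, and its log2 fold change of 3.12 was -0.07 without replicate 3. Without that library Gbp2 was at 0.28, Gbp5 at 0.36 and Gbp7 at 0.96, and the median over the 9 members was 0.47 in place of 1.01. Gbp4, linked to dampening of IRF7 signalling, and Gbp8 were below 1 CPM in every library of this comparison.

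At 7 days the tests detected no difference between the 2 genotypes in the 8 members. By edgeR 0 of 8 were called, none had an unadjusted p under 0.05, DESeq2 called 0, and 0.0378% of all genes were called. The log2 fold change of Fgg390-396A against WT was 0.13 for Gbp9 (95% interval -0.52 to 0.78), 0.27 for Gbp7 (-0.39 to 0.94), 0.06 for Gbp3 (-0.63 to 0.76), -0.13 for Gbp5 (-1.13 to 0.87) and -0.60 for Gbp2 (-1.71 to 0.52). The intervals of Gbp9, Gbp7 and Gbp3 leave out a 2-fold difference, and those of Gbp2 and Gbp5 do not. Ranges stood apart, higher, for 1 of the 8, Gbp7, against 5.8% of all genes. It was 17.4 to 23.7 CPM in Fgg390-396A and 14.2 to 17.2 CPM in WT libraries. For Gbp6, Gbp4 and Gbp8 the intervals ran from -3.12 to 3.85 at their widest, so a difference was not detectable at this depth and spread. Gbp2 was 5.64 to 9.51 CPM in WT libraries and 10.2, 2.62 and 2.26 CPM in Fgg390-396A libraries, where replicate 1 alone exceeded 2.62 CPM, and its log2 fold change without that library was -1.64. The microglial markers summed to 9068 to 10445 CPM in Fgg390-396A and 7964 to 8822 CPM in WT libraries, and their part was not tested.

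In myeloid cells at 1 day 0 of the 8 members were called between genotypes by edgeR and 0 by DESeq2, 0.453% of all genes were called, and 2 members had an unadjusted p under 0.05. These 2 were Gbp5, with a log2 fold change of 1.13 (95% interval 0.11 to 2.15, edgeR adjusted p = 0.387), and Gbp7, with 0.75 (0.08 to 1.42, edgeR adjusted p = 0.384). Gbp5 was 5.65, 1.51 and 8.03 CPM in Fgg390-396A and 2.93, 2.21 and 1.76 CPM in WT cells, and Gbp7 was 15, 16.7 and 37.7 CPM against 15.5, 13.7 and 12 CPM. Both overlapped between genotypes, and replicate 3 of the Fgg390-396A cells was the highest library for each. Without it the log2 fold change was 0.62 for Gbp5 and 0.21 for Gbp7. Gbp9, at 7.63 to 10.7 CPM against 7.21 to 8.48 CPM, had a log2 fold change of 0.21 (95% interval -0.44 to 0.87).

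Set side by side, the 2 clusters gave median log2 fold changes between genotypes that lay near each other. Of the chromosome 5 members only Gbp9 exceeded 3 counts in every library, so that cluster's median rested largely on sparse genes. Without Fgg390-396A replicate 3, Gbp4 moved from 0.66 to -1.21 in microglia at 1 day and Gbp8 from 1.59 to -5.20 in myeloid cells. The chromosome 3 median was 0.91 without Gbp2b (1.01 with it) and the chromosome 5 median 1.09 in microglia at 1 day. They were -0.03 (0.06) and 0.15 in microglia at 7 days, and 0.61 (0.75) and 0.89 in myeloid cells. The median over all genes was 0 in each of these comparisons. With 4 or 5 genes a cluster the difference between the medians moved with single libraries: the chromosome 3 median with Gbp2b less the chromosome 5 median was -0.08 in microglia at 1 day, and lay between -1.82 (without WT replicate 1) and 0.11 (without WT replicate 2) when 1 library was left out. In myeloid cells it was -0.14, 0.77 without Fgg390-396A replicate 3 and -0.70 without WT replicate 1; in microglia at 7 days it was -0.08, and 0.58 without Fgg390-396A replicate 1.

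In summed level the chromosome 3 cluster was the larger in every library. Without Gbp2b it summed to 12.8 to 23.8 CPM in WT microglia at 1 day and 27.7 to 44.4 CPM in Fgg390-396A microglia at 1 day, which do not overlap, and to 28.1 to 43.8 CPM in sham. The chromosome 5 cluster summed to 1.41 to 3.59 CPM in WT and 3.65 to 10.6 CPM in Fgg390-396A microglia at 1 day, against 10.7 to 12.3 CPM in sham. Its share of all members was 9.13% to 13.1% in WT and 11.5% to 18.1% in Fgg390-396A microglia at 1 day, 21.0% to 29.7% in sham, and 25.6% to 38.5% over the 2 groups at 7 days. Gbp7 made up 58.1% to 69.0% of the chromosome 3 sum in WT microglia at 1 day, and Gbp9 82.2% to 86.1% of the chromosome 5 sum.

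**Figure D3:**
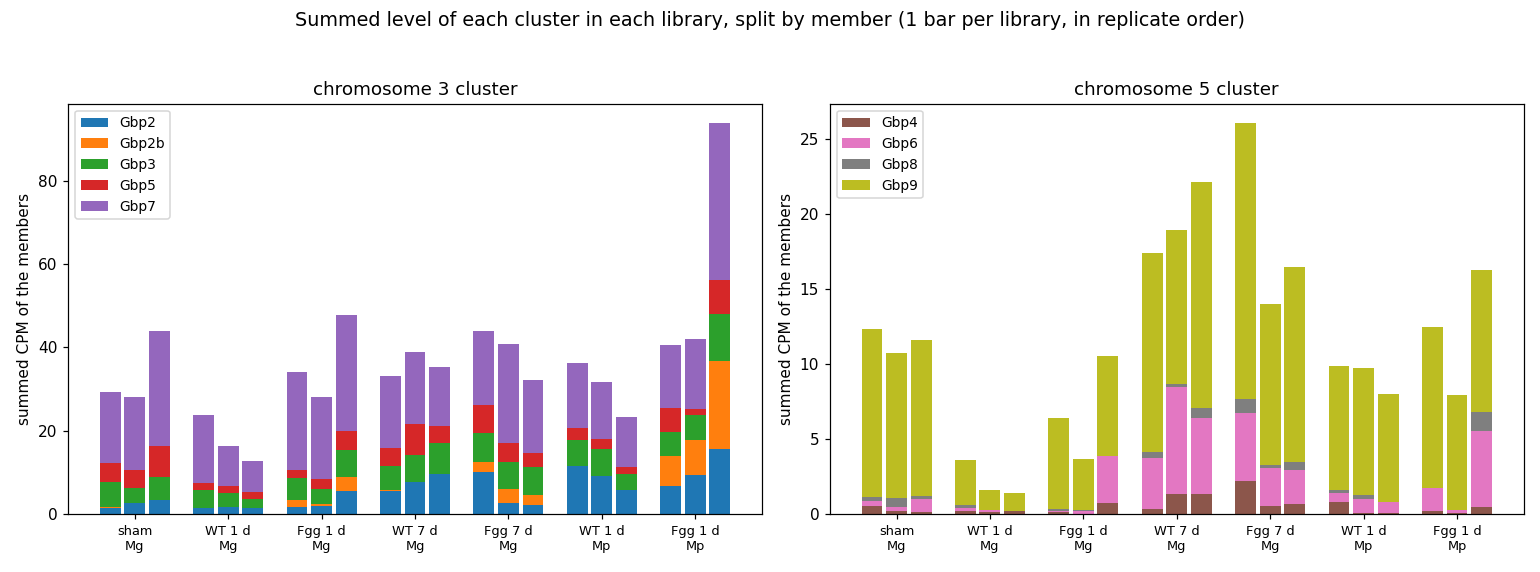
Summed CPM (y axis, linear, from 0) of the chromosome 3 members (left) and the chromosome 5 members (right) in each library, 1 stacked bar per library, coloured by member and grouped as on the x axis. Gbp7 is the largest part of the chromosome 3 sum and Gbp9 of the chromosome 5 sum in each library, and Gbp2b adds a visible share in Fgg390-396A libraries alone.

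From 1 to 7 days after injury Gbp2, Gbp5, Gbp6 and Gbp9 rose in WT microglia. These were 4 of 8 members, where 2.67% of all genes were called higher; 7 of the 8 had ranges that stood apart, higher, against 15.2% of all genes, and their median log2 fold change was 2.40 against 0. The summed microglial markers also stood apart, at 3311 to 5358 CPM at 1 day and 7964 to 8822 CPM at 7 days, as did 10 endothelial markers, at 59.8 to 108.8 CPM and 43.3 to 51.4 CPM. Their part in the result was not tested. Gbp9 rose from 3.02, 1.34 and 1.21 CPM to 13.3, 10.2 and 15.1 CPM (log2 fold change 2.79 ± 0.34, edgeR adjusted p = 3.38e-05). Gbp2, a member found at microbial vacuoles in infected cells, rose from 1.45, 1.59 and 1.48 CPM to 5.64, 7.68 and 9.51 CPM (2.33 ± 0.57, edgeR adjusted p = 0.0101).

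Gbp6 rose from 0.191, 0.181 and 0 CPM to 3.39, 7.11 and 5.10 CPM (log2 fold change 5.34 ± 1.32, edgeR adjusted p = 0.0109), with 10 counts in all behind the level at 1 day. Gbp5 rose from 1.6, 1.59 and 1.76 CPM to 4.44, 7.52 and 4.25 CPM (1.71 ± 0.50, edgeR adjusted p = 0.0304). The call of Gbp9 held in all 15 other settings. Without WT replicate 3 at 1 day only Gbp9 was called, with adjusted p of 0.0534 for Gbp2 and 0.0589 for Gbp6 (edgeR). Gbp5 also lost its call without WT replicate 1 or 2 at either time (adjusted p up to 0.141, edgeR). Gbp3 was also called by DESeq2, with DESeq2's size factors in edgeR and under a stricter count filter, where 5 members passed.

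In Fgg390-396A microglia Gbp9 rose over the same interval, 1 of 8 members, where 0.663% of all genes were called higher. It went from 6.09, 3.37 and 6.67 CPM to 18.4, 10.8 and 13.1 CPM (log2 fold change 1.39 ± 0.32, edgeR adjusted p = 0.0115), and lost its call without Fgg390-396A replicate 2 at 1 day or without replicate 1 at 7 days (adjusted p up to 0.0904, edgeR). Gbp6 and Gbp9 were both called without replicate 3 at 1 day. Gbp2 was 1.78, 1.89 and 5.58 CPM at 1 day and 10.2, 2.62 and 2.26 CPM at 7 days, and its ranges overlapped. Whether the change over time differed between genotypes was not tested, since it would rest on the 1 day genotype contrast, which is only described.

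Against sham, 0 of 8 members were called at 7 days in either genotype by edgeR. In WT microglia 2.02% of all genes were called, 2 members had an unadjusted p under 0.05, and DESeq2 called 1 member, Gbp6. Gbp6 was 0.351, 0.266 and 0.880 CPM in sham and 3.39, 7.11 and 5.10 CPM at 7 days, without overlap (log2 fold change 3.36, 95% interval 0.93 to 5.78, edgeR adjusted p = 0.180), and Gbp2 was 1.43 to 3.37 CPM in sham and 5.64 to 9.51 CPM at 7 days (1.61, 0.46 to 2.76, edgeR adjusted p = 0.171). In Fgg390-396A microglia 0.663% of all genes were called, 1 member had an unadjusted p under 0.05 and DESeq2 called 0. Gbp6 was 4.53, 2.55 and 2.29 CPM there (2.62, 0.26 to 4.99, edgeR adjusted p = 0.583). With wildtype shams only, injury and genotype cannot be told apart in that comparison. Gbp9, at 10.2 to 15.1 CPM in WT and 10.8 to 18.4 CPM in Fgg390-396A microglia, overlapped with the 9.68 to 11.2 CPM of sham.

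Infiltrating myeloid cells had more Gbp2 than microglia of the same time and genotype. In WT mice Gbp2 and Gbp9 were called higher, 2 of 8 members, where 5.61% of all genes were called higher. Gbp2 was 11.4, 9.06 and 5.77 CPM in myeloid cells and 1.45, 1.59 and 1.48 CPM in microglia (log2 fold change 2.54 ± 0.57, edgeR adjusted p = 0.00394), and Gbp9 was 8.30, 8.48 and 7.21 CPM against 3.02, 1.34 and 1.21 CPM (2.11 ± 0.33, edgeR adjusted p = 0.000163). Both calls held in all 14 other settings. Gbp7 did not pass, at 12 to 15.5 CPM in myeloid cells and 7.42 to 16.4 CPM in microglia (0.31, 95% interval -0.36 to 0.98).

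In Fgg390-396A mice Gbp2 was called, 1 of 8 members, where 6.96% of all genes were called higher. It was 6.64, 9.28 and 15.6 CPM in myeloid cells and 1.78, 1.89 and 5.58 CPM in microglia, without overlap (log2 fold change 1.78 ± 0.55, edgeR adjusted p = 0.0242). That call was lost without replicate 1 or 2 of the microglia, without replicate 3 of the myeloid cells, and in a fit of these 2 groups alone (adjusted p up to 0.113, edgeR). Gbp9 was 10.7, 7.63 and 9.46 CPM in myeloid cells and 6.09, 3.37 and 6.67 CPM in microglia, with ranges that stood apart and a log2 fold change of 0.78 that did not pass (edgeR adjusted p = 0.0856). The 12 T and NK cell markers summed to 21.4 to 40.6 CPM in the myeloid libraries and 0.0754 to 4.06 CPM in microglia, where 4 or 5 of them were at 0 in every library of a group, among them Nkg7 in all 5 microglial groups. Neutrophil markers summed to 2805 to 13274 CPM in the myeloid libraries and 106 to 872 CPM in microglia, and monocyte markers moved with cell type as given above; their part in these results was not tested.

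**Figure D4:**
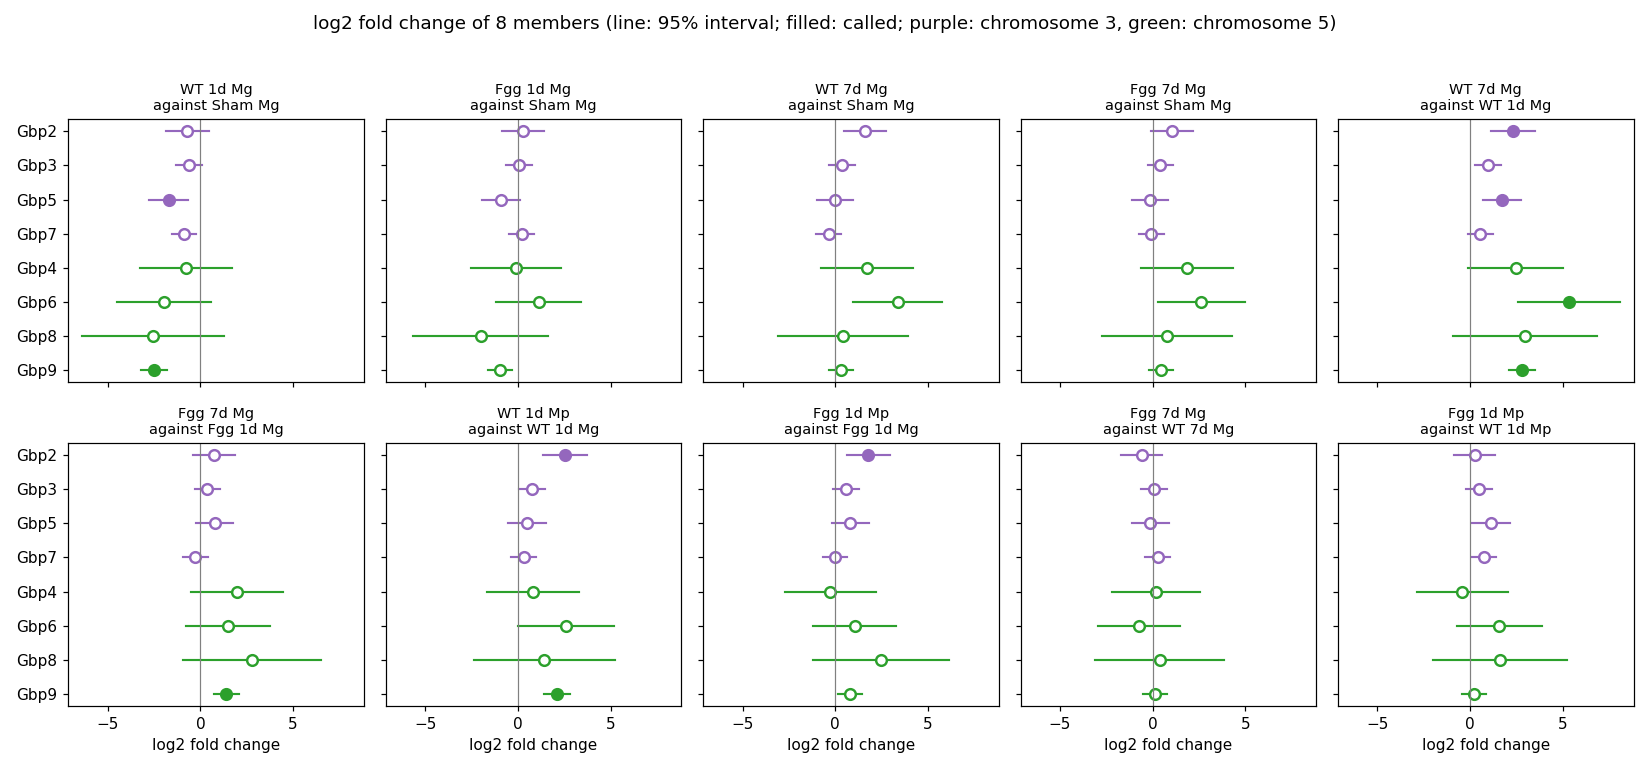
Fitted log2 fold change (x axis, point) and 95% interval (line) of the 8 members other than Gbp2b (y axis) in 10 comparisons; the genotype contrast in microglia at 1 day is left out because it is only described. Purple marks chromosome 3 and green chromosome 5, and filled points are called. Filled points are those of Gbp2, Gbp5, Gbp6 and Gbp9, and the widest intervals are those of Gbp4, Gbp6 and Gbp8.

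Across the 7 groups Gbp9 was lowest in WT microglia at 1 day (1.85 ± 1.01 CPM, SD, n = 3) and next in Fgg390-396A microglia at 1 day (5.38 ± 1.76 CPM), and the ranges of these 2 groups overlapped neither with each other nor with WT myeloid cells, the next group (7.99 ± 0.68 CPM). From there the order was Fgg390-396A myeloid cells (9.26 ± 1.55 CPM), sham (10.4 ± 0.77 CPM), WT microglia at 7 days (12.9 ± 2.46 CPM) and Fgg390-396A microglia at 7 days (14.1 ± 3.91 CPM), and each of these overlapped with its neighbours. WT microglia at 1 day was also the lowest group by mean for Gbp2, Gbp3, Gbp4, Gbp5, Gbp6, Gbp7 and Gbp8. It stood apart from the next group for Gbp5 and Gbp6 and overlapped with it for the others. Gbp2b was at 0 CPM there and in WT myeloid cells. Gbp7 stood apart between WT microglia at 7 days (16.2 ± 1.74 CPM) and the next group in its order, Fgg390-396A microglia at 7 days (19.6 ± 3.52 CPM), and its other neighbours overlapped.

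The genes with the most similar profile over the 7 group means, by root mean square difference of centred log2 CPM among 10485 genes, were Hist2h2bb (0.80), Gm12666 (0.82) and Lyve1 (0.97) for Gbp2b. Hist2h2bb, on chromosome 3 as are Gbp2b and Fgg, averaged 5.44 to 10.7 CPM in the 3 Fgg390-396A groups and 0.344 to 2.66 CPM in the 4 wildtype groups. Gm12666, on chromosome 4, averaged 1.76 to 2.72 CPM in the 3 Fgg390-396A groups and 0 to 0.0526 CPM in the 4 wildtype groups. Lyve1, on chromosome 7, averaged 6.26 to 27.3 CPM in the 3 Fgg390-396A groups and 3.43 to 9.13 CPM in the 4 wildtype groups, which overlap. For Gbp7 they were Cog1 (0.16), Dexi (0.16) and Med12 (0.19), and for Gbp9 H2-Oa (0.23), Chst15 (0.24) and Ulk1 (0.25). The match to Gbp2b was looser than those to Gbp7 and Gbp9.

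Genes around the guanylate-binding proteins in the interferon-gamma pathway were followed as lists. Ifng, the ligand, was at 0 in 17 of 21 libraries and reached 15 counts in 1 WT microglial library at 7 days. Among 19 receptor and signalling genes, 1 was called higher and 2 lower in WT microglia at 1 day against sham, beside 8.06% and 4.21% of all genes. The lower ones were Ifngr1, a receptor subunit, from 319.4 to 127.1 CPM (log2 fold change -1.33), and Irf1, from 12 to 5.24 CPM (-1.19, edgeR adjusted p = 0.0269). The higher one was Socs3 (1.58). From 1 to 7 days 4 of the 19 were called higher and 1 lower in WT microglia, beside 2.67% and 4.39% of all genes, and the list's median log2 fold change was 0.77 in WT and 0.26 in Fgg390-396A microglia. Socs1, a feedback inhibitor, was at or below 0.748 CPM on average in every microglial group.

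Of the immunity-related GTPases and giant GTPases, relatives in the same defence, 10 of 18 were called higher from 1 to 7 days in WT microglia, against 2.67% of all genes, with a median log2 fold change of 1.65 against 0 over all genes. Irgm1, which protects the cell's own membranes, rose from 7.61 to 22.8 CPM (1.58, edgeR adjusted p = 0.00062), and Igtp went from 14.8 to 27.0 CPM without passing (0.87, edgeR adjusted p = 0.0664). In Fgg390-396A microglia 2 of 18 were called higher, against 0.663% of all genes, Irgm1 with 10.1 and 20.7 CPM among them (1.04, edgeR adjusted p = 0.0237), and the list's median was 1.02. In myeloid cells 2 of 18, Irgm2 and Gm4070, were higher in Fgg390-396A than in WT mice, where 0.252% of all genes were called higher, from 5.24 to 11.2 CPM and from 43.8 to 91.2 CPM (1.09 and 1.06, edgeR adjusted p = 0.0461 for both). Irgm2 was also called lower in microglia at 1 day than in sham, at 28.9 CPM in sham, 7.8 CPM in WT (-1.89) and 12 CPM in Fgg390-396A microglia (-1.26).

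Of 24 other interferon-gamma targets tested, 9 were called higher and 1 lower in WT microglia from 1 to 7 days, beside 2.67% and 4.39% of all genes. The chemokine Cxcl9 rose from 0.857 to 32.0 CPM (5.22, edgeR adjusted p = 0.00187), while Cxcl10 was 71.5 and 92.1 CPM (0.37, edgeR adjusted p = 0.832). Cxcl10 was already higher at 1 day than in sham, at 71.5 against 2.70 CPM (4.72, edgeR adjusted p = 0.000147), a time at which Gbp9 and Gbp5 were lower. Over the same interval in Fgg390-396A microglia 3 of 24 were called higher, against 0.663% of all genes, and Cxcl9 went from 4.89 to 23.2 CPM without passing (2.27, edgeR adjusted p = 0.167). Among 18 inflammasome partners 3 were called higher and 2 lower in WT microglia from 1 to 7 days, beside the same 2.67% and 4.39%. Casp4, the caspase that senses bacterial lipopolysaccharide, was 20.8 and 34.2 CPM (0.72, edgeR adjusted p = 0.0982) and Gsdmd, the pore-forming protein it cleaves, 14.4 and 21.3 CPM (0.57, edgeR adjusted p = 0.156). Among 16 type I interferon and receptor genes 3 were called higher over that interval, against 2.67% of all genes.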

How the data were processed

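RNA was sequenced from 21 libraries of sorted brain cells. The authors trimmed the reads, aligned them to GRCm38 with STAR and quantified genes with salmon in the nf-core RNA-seq pipeline; the submitters' processing notes name R 4.2.0 and DESeq2 1.36.0. The annotation release is not given in the sources used here. The deposited table holds expected counts per gene, scaled from salmon's length-corrected abundances to each library's depth and not normalized between libraries; whether strand was used is not given, so overlapping gene models cannot be fully told apart. All 21 sample columns were used.

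The expected counts were rounded. edgeR 4.0.16 in R 4.3.3 (TMM, quasi-likelihood test, 1 mean per group, all libraries) was fitted to the 23815 genes with at least 5 counts in total, with Benjamini-Hochberg adjustment over all. Genes were called at an adjusted p under 0.05 (0.1 between genotypes, as in the study) where they also differed by more than 1 on the log2 scale. Intervals are 95%. DESeq2 1.42.0 was an alternative, as were other scaling, filters, thresholds, sample sets, a replicate block and leaving out each library. The code was tested on simulated counts. Of 45706 identifiers, 45143 matched GENCODE M21.

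The members, gene lists and marker lists were chosen with earlier results of these data known. Named genes were the members, other Gbp rows, 10 fixed pathway genes, list genes called between genotypes, the 3 genes most like Gbp2b, Gbp7 and Gbp9, and chromosome 3 genes called between genotypes in microglia; Ifngr1 and Socs3 were named after their values were seen. Each library is a pool of 2 brains, so p-values measure the spread between pools; whether microglial and myeloid libraries at 1 day came from the same pools is not given in the sources used here, and they were fitted as unpaired. The lowest chi-square per degree of freedom between replicates was 18.6, so no library was a repeat of another in its group. Pairs across groups were not compared. Counting intervals and floors (3 counts) cover counting error only. Deviations from the group means correlated above 0.1 in all 3 same-numbered pairs (0.12 to 0.42) only between genotypes in microglia at 1 day, where no member was tested. One pathway gene of that rule is not reported here.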

Additional observations from a re-analysis of the deposited data

How the results depend on the processing

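Alternatives were another test, scaling, filters, sample sets, thresholds, omission of ribosomal RNA, a replicate block, and summing Gbp6 with Gbp10 and Gm43302, which was added after the data were seen. Against sham, 1 member was called in Fgg390-396A microglia at 1 day (Gbp9) by DESeq2, with DESeq2's size factors in edgeR and under filterByExpr, and 1 in WT microglia at 7 days (Gbp6) by DESeq2 and in a fit of the compared groups alone, in place of 0. In Fgg390-396A mice, myeloid cells against microglia gave 0 calls in a fit of the compared groups alone, and 7 days against 1 day gave 0 above an absolute log2 fold change of 1.5. Leaving out 1 library gave 1 to 2 calls for WT microglia at 1 day against sham, 0 to 2 for Fgg390-396A myeloid cells against microglia, 1 to 4 for WT microglia at 7 days against 1 day and 0 to 2 for the same in Fgg390-396A mice. It moved the members' median log2 fold change between genotypes in microglia at 1 day (1.01) to between 0.47 and 1.48, and the chromosome 3 median less the chromosome 5 median to between -1.82 and 0.11 in microglia at 1 day, -0.32 and 0.58 at 7 days, and -0.70 and 0.77 in myeloid cells. The causes were not tested. No call of a member changed sign.

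Outside the genotype contrast in microglia at 1 day, same-numbered libraries did not all correlate above 0.1, which cannot exclude shared pools. Between WT myeloid cells and WT microglia at 1 day these correlations ran from 0.03 to 0.17. With the replicate block the median of the 9 members between genotypes in microglia at 1 day was 0.93, and no count of called members changed. DESeq2 called 826 genes between genotypes in myeloid cells and edgeR 108. Members under 1 CPM (Gbp4, Gbp8, and Gbp6 at 1 day in WT microglia) were too sparse for differences to be detected unless large.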
